A study of Homo sapiens with 8 samples.

Results

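OCT2-only regions are stretches of the genome where a ChIP-seq peak list for OCT2 placed a peak and none of 6 further lists (OCAB, MTA2, Mi2, HDAC2, IKAROS and AIOLOS) did. They were chosen by merging the peaks of all 7 lists wherever at least 1 bp was shared and keeping the merged regions that held OCT2 and nothing else. This gave 818 regions of 74123 in all (1.10%), and 818 of the 8127 regions with an OCT2 peak (10.1%, 95% Wilson interval 9.43 to 10.7). Each of the 818 held 1 OCT2 peak.

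All libraries came from 697 cells, a human line established from B-cell precursor leukaemia and grown with 10% fetal bovine serum. ChIP-seq sequences the DNA that an antibody brings down with its protein, and a library of input DNA, taken without antibody, serves as the background. There was 1 library for each of the 7 antibodies and 1 of input, so no value has a replicate error. Intervals of shares and tag counts cover counting error only, and intervals of medians cover the spread over regions within 1 library. Regions are not replicates, and no p-value between classes of region was computed. The OCT2 library held about 18.3 M tags; the OCAB, Mi2 and AIOLOS libraries held 17.6, 18.5 and 16.1 M, and HDAC2 10.9 M. OCT2 peaks and the absence of other peaks chose the members, so all OCT2 values given here are descriptions of them.

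OCT2, encoded by POU2F2, is a POU-domain transcription factor of B cells that reads an octamer of bases, ATGCAAAT or ATTTGCAT on the other strand. The octamer is found in the promoters of immunoglobulin V genes and in enhancers of the immunoglobulin loci. It also stands in promoters of histone H2B genes and of small nuclear RNA genes, where the related and widely expressed factor OCT1 acts. OCAB, a coactivator with no strong DNA binding of its own, joins octamer-bound OCT1 or OCT2. MTA2, Mi2 and HDAC2 belong to NuRD, a remodelling and deacetylase complex, and IKAROS and AIOLOS are lymphoid zinc-finger factors.

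The highest OCT2-only peaks were few and well above the rest. Peak height is the authors' normalized tag count, scaled to a library of 10 M tags. The first, on chromosome 3 from 18027151 to 18027425 (build hg19, as are all peak coordinates here), had a height of 86.7. It rested on 159 tags (exact Poisson interval 135 to 186), beside 2.6 input tags after scaling, and stood 61.4-fold over input. On chromosome 13, the region from 30948698 to 30948972 had a height of 67.1; its 143.75-fold over input was the highest among the members, over an input value of 0.9. A region on chromosome 15, 91204609 to 91204883, had a height of 62.7 and stood 66.7-fold over input. Among the 10 highest, heights ran down to 49.1 and folds over input from 5.91 to 143.75, and 6 of the 10 lay within 500 bp of a peak of another list.

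A different kind of peak took the seventh place by height. It lay on chromosome 3, 73159966 to 73160240, with a height of 55.6, but its input value of 17.3 was the highest of all members and its fold over input was 5.91. Its clonal fold, the authors' ratio of tags found to tags predicted from the number of separate positions, was 1.76. That was the highest among the members and the only value over 1.5, where their median was 0.96.

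Several of the high members lay in the stretch of chromosome 6 from 26 to 28 Mb, which holds the large cluster of replication-dependent histone genes, together with many transfer RNA genes. This span and 4 others were taken after the highest members had been seen, so their counts are a description. The places of these loci on the build are background knowledge, not read from an annotation. It held 8 OCT2-only regions among 35 regions with OCT2 (22.9%, 12.1 to 39.0). Their heights were 62.2, 46.4, 45.3, 41.5, 34.9, 33.3, 29.5 and 23.5, with a median of 38.2, against 10.4 for the other members. All 8 had a height rank of 59 or better among the 818. The highest of them, from 26158957 to 26159231, was the fourth among all OCT2-only regions. The other OCT2 peaks of the span had a median height of 36.6 and reached 93.3, so the medians with and without another protein lay close together there.

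Over their surroundings these 8 peaks had folds from 4.39 to 11.95. The median was 5.43, against 6.88 for the other members, although their fold over input was 17.0 against 12.0. The focus ratio, the authors' fraction of tags lying where a single sharp peak would put them, was 0.561 to 0.689 in the 8, below the 0.765 median of the rest. Of the 27 other OCT2 regions of the span, AIOLOS was found in 25, IKAROS in 19, MTA2 in 10, HDAC2 in 8, Mi2 in 5 and OCAB in 2. Shares of these proteins over all OCT2 regions are not set beside these counts, so no trait of the span is read from them.

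A second cluster of histone genes lies on chromosome 1. Over the megabase from position 149000000, 2 of 6 OCT2 regions were OCT2-only. The region from 149857167 to 149857441 had a height of 52.9, the ninth among all members, with a fold over input of 28.4, a local fold of 5.88 and a focus ratio of 0.617. The other, from 149658457 to 149658731, had a height of 15.8, a local fold of 27.7 and a focus ratio of 0.853. The first thus had local and focus values within the range of the 8 on chromosome 6, and the second had values outside it.

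Histone promoters are shown here because octamers in them are part of what the cluster is known for. Among RefSeq promoter windows (build GRCh38.p14, 250 bases before to 50 after each start site), ATGCAAAT or ATTTGCAT was present in 15 of 20 windows of H2B genes and 11 of 16 of H2A genes on chromosomes 1 and 6. It was present in 1 of 13 windows of H3 genes and in none of 12 of H4 and 6 of H1 genes there, against 623 of all 35116 windows (1.77%). H2A and H2B genes often lie head to head and can then share a promoter. The first 3 H2B genes of chromosome 6 by number and the first of chromosome 1 with the octamer before the start site read as follows, 5′ to 3′ on the strand of the gene, with the octamer in capitals.
H2BC1: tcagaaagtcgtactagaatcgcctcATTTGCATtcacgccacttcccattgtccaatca
H2BC3: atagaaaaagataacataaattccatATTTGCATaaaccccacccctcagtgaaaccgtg
H2BC4: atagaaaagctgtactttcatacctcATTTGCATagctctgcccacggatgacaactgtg
H2BC18: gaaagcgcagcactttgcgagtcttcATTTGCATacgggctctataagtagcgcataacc
All 4 carry the octamer as ATTTGCAT, ending 97, 113, 116 and 42 bases before the start. The peaks are on another build, so none of the OCT2-only regions was placed at any of these promoters, and the octamer was not searched in the regions themselves.

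At the immunoglobulin loci, the classical home of octamers, OCT2-only regions were counted beside the genome-wide share of 10.1%. On chromosome 14 from position 106000000 to the end, which holds the heavy chain locus, 4 of 21 OCT2 regions were OCT2-only (19.0%, 7.67 to 40.001). Their heights were 38.2, 13.6, 12.5 and 10.4; the 38.2 belonged to the region from 107259746 to 107260020, which had a height rank of 19 among all members and an MTA2 peak 278 bp away. Around the kappa locus, from 89 to 91 Mb of chromosome 2, there were 2 of 8 (25%, 7.15 to 59.1), with heights of 10.4 and 6.55. Around the lambda locus, from 22 to 24 Mb of chromosome 22, none of 36 OCT2 regions was OCT2-only, which allows a share of up to 8.33% (3 counts of the 36; the Wilson interval ends at 9.64%). In that span OCT2 lay with IKAROS in 35 of the 36, with AIOLOS in 33, with MTA2 in 30, with HDAC2 in 22, with OCAB in 21 and with Mi2 in 4. These counts too have no share over all OCT2 regions beside them.

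**Figure D1:**
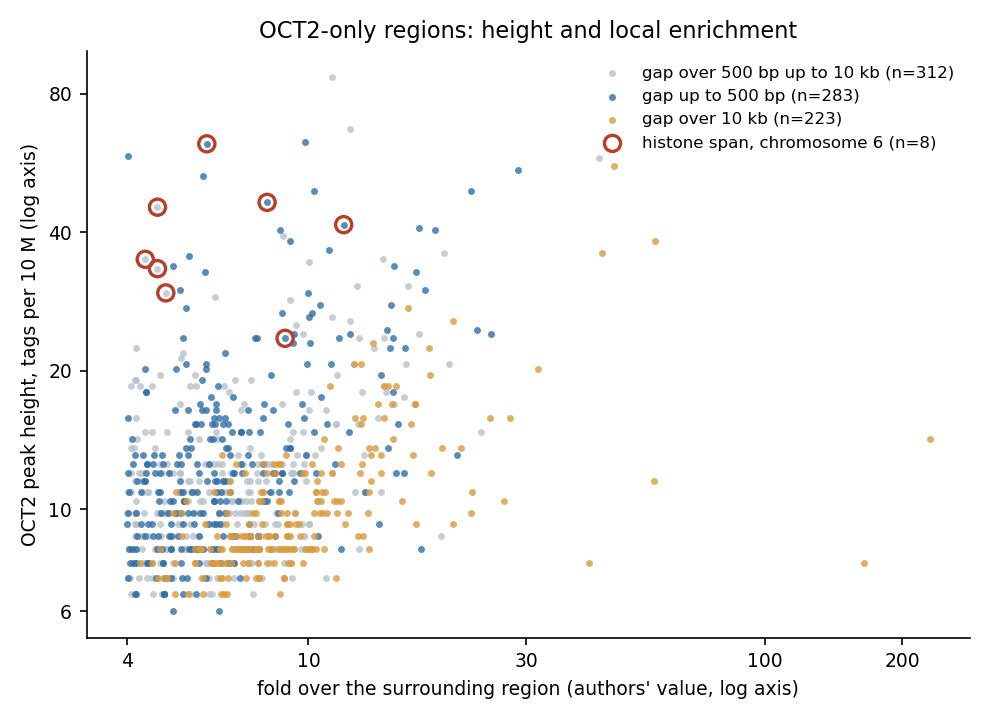
Each point is 1 of the 818 OCT2-only regions, placed by the authors' fold over the surrounding region (log axis) and by OCT2 peak height in tags per 10 M (log axis), coloured by the gap to the nearest peak of another list. The 8 regions of the histone span on chromosome 6 (circles) have heights of 23.5 to 62.2 at local folds of 4.39 to 11.95.

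Most OCT2-only peaks were low. Their median height was 10.4 (95% interval of the median 10.4 to 10.9), the middle 50% lay between 8.18 and 13.6, and the lowest was 6. Other OCT2 peaks had a median of 14.7 (14.2 to 14.7), so the ratio of the medians was 0.707. In tags, the median member rested on 19 (exact Poisson interval 11.4 to 29.7 for a single peak of that count) and the smallest on 11.

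The share of peaks that stood alone fell with height. OCT2-only peaks made up 20.1% of the lowest 25% of OCT2 peaks by height (18.4 to 21.8), 9.79% of the next 25% (8.59 to 11.1), 5.71% of the next (4.77 to 6.81) and 4.004% of the highest 25% (3.22 to 4.98). Within the upper range the share hardly moved: it was 4.75% at a height of 15 or more, 4.198% at 20 or more, 4.13% at 30 or more and 3.95% at 50 or more. Of the 100 highest OCT2 peaks, 1 was OCT2-only, and of the 1000 highest, 40 were.

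OCT2 height also stepped with the number of other proteins. The median was 10.9 with 1 other protein (688 peaks), 12 with 2, 13.1 with 3, 15.3 with 4, 18.0 with 5 and 22.4 with all 6 (483 peaks). OCT2 peaks with a single partner were close to the members: the median was 10.4 with IKAROS alone (9.82 to 10.9, 213 peaks), 10.9 with OCAB alone (10.4 to 12, 118 peaks) and 11.5 with MTA2 alone (10.9 to 12.5, 178 peaks). The interval with IKAROS alone or OCAB alone overlapped that of the members; with MTA2 alone it met theirs at 10.9.

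**Figure D2:**
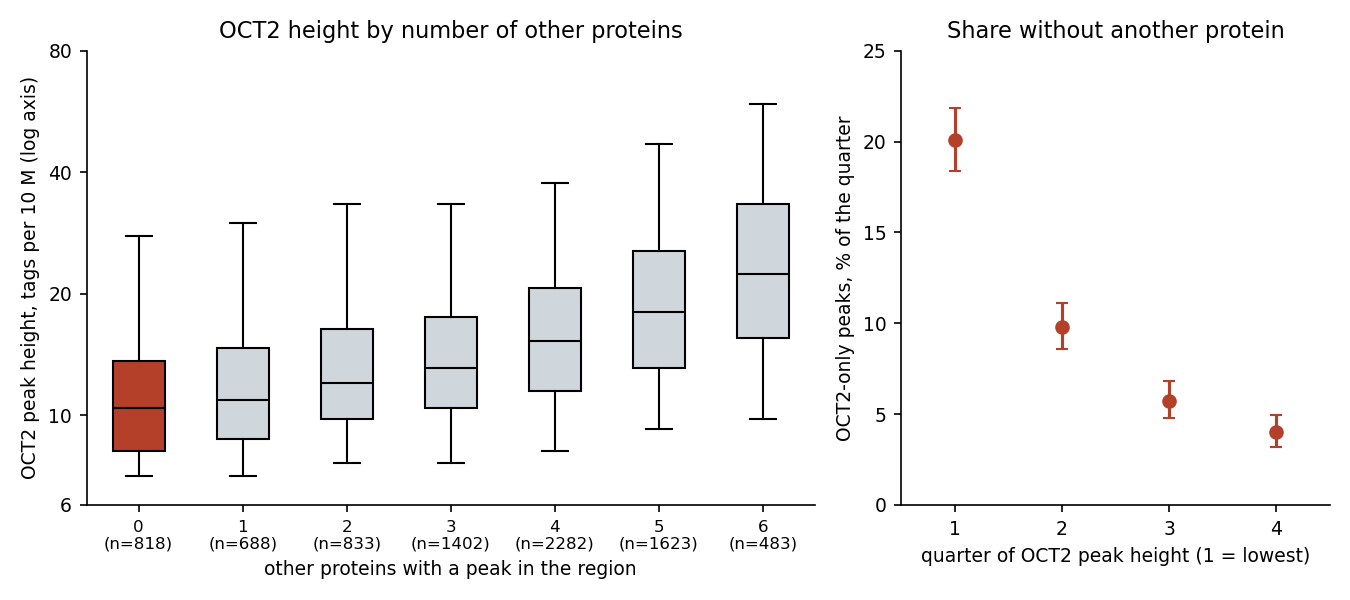
Left, OCT2 peak height in tags per 10 M (log axis) by the number of other proteins in the region; boxes give the median and the middle 50% of the peaks, whiskers the 5th and 95th percentiles, and the median steps from 10.4 with none to 22.4 with 6. Right, OCT2-only peaks as a percentage of 4 equal classes of OCT2 height, with 95% Wilson intervals, from 20.1% in the lowest to 4.004% in the highest.

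Single-list regions were lower than shared ones in each of the 7 lists. The ratio of median height, alone against with others, was 0.707 for OCT2, between 0.408 for IKAROS and 0.802 for Mi2. OCAB peaks alone had a ratio of 0.801 and MTA2 peaks alone one of 0.637. The OCT2 list gave up a smaller part of its regions to this class than most: 10.1% were OCT2-only. The shares were 14.7% MTA2-only, 15.3% HDAC2-only, 27.2% OCAB-only, 30.3% IKAROS-only and 42.7% Mi2-only. AIOLOS was lower still, with 9.57%. The lists differ in length and in calling limits, so these shares are set side by side as a description.

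OCT2-only peaks combined low height with low input. Their input value had a median of 1.7, against 2.6 for other OCT2 peaks, and their fold over input was 12.1 (11.01 to 13.5) against 9.85 (9.66 to 9.85). The deposited input values go in steps (0.4, 0.9, 1.7, 2.6), as scaled whole tags would, and 36.4% of the members lay at 0.9 or less, against 17.8% of other OCT2 peaks. Many folds of members thus rest on very few input tags. In the highest 25% by height, where input was less sparse, the medians were 16.2-fold for members and 13.0-fold for the others, over input values of 3.5 and 4.3. In the lowest 25% the medians were 15.07-fold for members and 11.01-fold for the others, over input values of 0.9 and 1.7. In the next 25% by height they were 8.89-fold and 8.11-fold, with an input value of 2.6 in both classes. No OCT2 peak in the list stood under 4-fold over input, which a low peak can pass only over low input. Whether this bears on the difference between members and other OCT2 peaks was not tested.

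Enrichment over the surrounding region went the other way. The median local fold was 6.88 for the members (6.63 to 7.17) and 8.44 for other OCT2 peaks (8.32 to 8.54), and 18.9% of the members stood under 5-fold, against 8.54% of the others. In the lowest 25% by height the medians were alike, 6.40 and 6.28, and in the highest they were 10.6 and 13.6. The highest local fold, 229.86, belonged to a region on chromosome 7, 74379812 to 74380086, of height 14.2 and 15.1-fold over input. That peak rested on 26 tags, so a local fold of this size needs very few tags in the surroundings. Of the members, 84.4% had a p-value over input of 1e-10 or less in the authors' column, against 89.7% of all OCT2 peaks.

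OCT2-only did not mean isolated. The median gap from an OCT2-only region to the nearest peak of another list was 1816 bp (1347 to 2478), and 283 of the 818 (34.6%, 31.4 to 37.9) had such a peak within 500 bp. A further 68 had one between 500 and 1000 bp, and 595 (72.7%, 69.6 to 75.7) within 10 kb. Beyond 10 kb lay 223 regions (27.3%), and beyond 100 kb 42. Members thus crowded at the short end: gaps up to 250 bp were found in 200 members, gaps over 250 up to 500 bp in 83, and gaps over 500 up to 750 bp in 40.

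Single-list regions of other proteins showed gaps of the same order. Within 500 bp of another list lay 39.7% of HDAC2-only (37.8 to 41.7), 31.5% of AIOLOS-only (29.98 to 33.0) and 30.4% of MTA2-only regions (29.1 to 31.8). Lower shares were 22.9% of Mi2-only (21.7 to 24.2), 22.2% of OCAB-only (19.9 to 24.6) and 9.80% of IKAROS-only regions (9.35 to 10.3). The interval of OCT2-only regions lay above those of Mi2-only, OCAB-only and IKAROS-only regions and overlapped those of HDAC2-only, AIOLOS-only and MTA2-only regions. For IKAROS-only regions, IKAROS, the longest list, is not available as a neighbour.

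**Figure D3:**
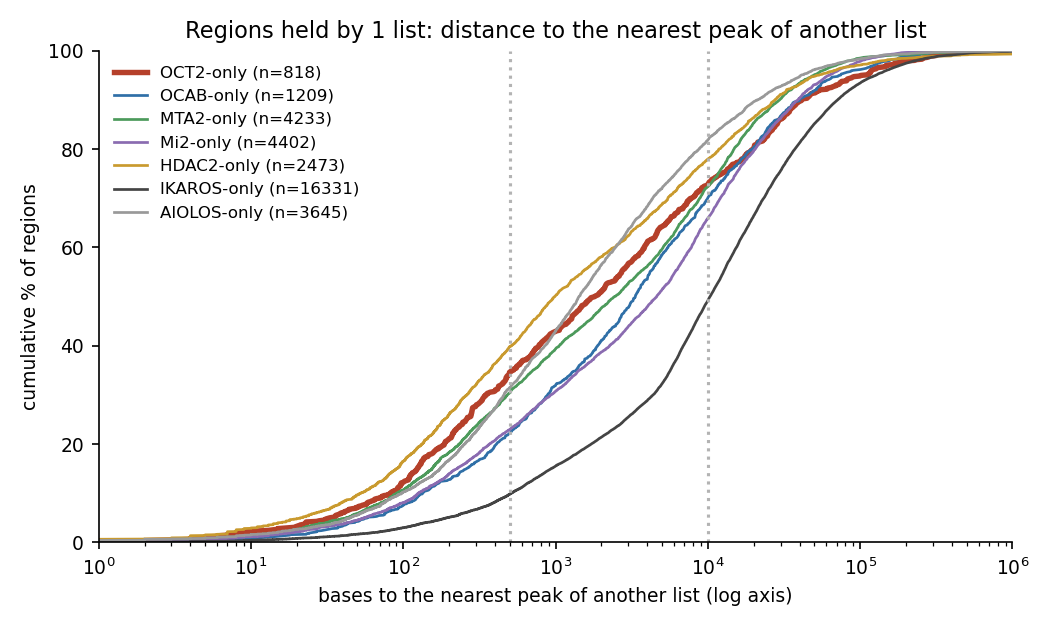
Cumulative percentage of the regions held by a single list that have a peak of another list within the distance on the log axis, in bases, for each of the 7 lists; dotted lines mark 500 bp and 10 kb. The OCT2-only curve passes 34.6% at 500 bp and 72.7% at 10 kb, and the IKAROS-only curve lies lowest at both.

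IKAROS was the most frequent neighbour. The number of members with any peak of a list within 500 bp followed the lengths of the lists. Counted by the nearest list within 500 bp, HDAC2 came before MTA2 and AIOLOS, whose lists are longer. IKAROS had 53948 peaks, AIOLOS 38101, MTA2 28760, HDAC2 16125, Mi2 10303 and OCAB 4440. No background share was computed. With a gap up to 500 bp, the nearest list was IKAROS for 98 members, HDAC2 for 68, MTA2 for 51, AIOLOS for 41, Mi2 for 19 and OCAB for 6. IKAROS, whose list is the longest, was the nearest list for 317 members (38.8%), AIOLOS for 139, HDAC2 for 134, MTA2 for 128, Mi2 for 66 and OCAB for 34. Within 500 bp, IKAROS was found beside 217 members (26.5%, 23.6 to 29.7), AIOLOS beside 180 (22.005%), MTA2 beside 172 (21.0%), HDAC2 beside 133 (16.3%), Mi2 beside 40 (4.89%) and OCAB beside 17 (2.08%). Of the 283 members with a neighbour this close, 68 had 1 list there, 62 had 2, 71 had 3, 60 had 4, 18 had 5 and 4 had all 6. The neighbouring region itself held an OCT2 peak for 22 of the 283 (7.77%, 5.19 to 11.5), and for 71 of all 818 members (8.68%). For scale, 7309 of all 74123 merged regions held OCT2 with another list's peak. No member had the OCT2 peak of such a region within 250 bp, while 200 of the 283 had another list's peak that close. The shares are therefore not alike, and no trait of the neighbours is read from them. The nearest OCT2 region that did hold another protein lay a median of 71340 bp away.

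Members near another peak differed from remote ones in shape. With a gap up to 500 bp, the median height was 12 (11.5 to 12.5), the local fold 6.22 (5.89 to 6.43) and the focus ratio 0.720 (0.704 to 0.737). With a gap over 10 kb, the height was 9.27 (8.73 to 9.82), the local fold 8.72 (8.20 to 9.13) and the focus ratio 0.800 (0.789 to 0.810). By their medians in this 1 library, near members were higher but less sharp. The intervals describe spread over regions, and the difference between the classes was not tested. Fold over input was 11.2 (9.97 to 12.8) near and 15.1 (11.6 to 16.2) far, where the intervals overlapped.

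The edge of the rule was crossed gradually. The members with the smallest gaps lay on chromosome 18, 71614513 to 71614787 (1 bp from an HDAC2 peak, height 14.7), on chromosome 19, 44439176 to 44439450 (2 bp from HDAC2, height 12), and on chromosome 6, 26104530 to 26104804 (2 bp from HDAC2, height 41.5), in the histone span. Just outside were OCT2 peaks on chromosome 5, 79366333 to 79366607 (1 bp shared with HDAC2, height 10.4), on chromosome 1, 2480469 to 2480743 (2 bp with IKAROS, height 10.9), and on chromosome 12, 53400169 to 53400443 (2 bp with Mi2, height 8.18). The 58 members within 50 bp of another peak had a median height of 12.25, and the 79 other OCT2 peaks with at most 50 bp shared had 12. Most shared peaks were far from this edge: 90.5% of them had another list's peak centre within 100 bp, with a median distance of 20 bp, while the nearest such centre to any member was 269 bp away. Counting a peak within 500 bp as shared would leave 535 OCT2-only regions, and asking for centres within 100 bp would give 1515.

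High OCT2-only regions often had OCAB nearby, a pattern noticed after the values were seen. Of the 36 members with a height of 30 or more, 16 had an OCAB peak within 5 kb (44.4%, 29.5 to 60.4), against 21 of 139 with a height of 15 to under 30 (15.1%, 10.1 to 21.99) and 21 of 643 below 15 (3.27%, 2.15 to 4.94). OCAB was the nearest list for 10 of the 36, although its list is the shortest of the 7. IKAROS within 5 kb also went up with height, from 51.9% below 15 to 67.6% and 83.3%, and AIOLOS from 42.3% to 63.3% and 83.3%. MTA2 went from 39.0% to 65.5% and 69.4%, HDAC2 from 28.3% to 51.8% and 47.2%, and Mi2 from 13.8% to 17.3% and 16.7%. Outside the histone spans of chromosomes 6 and 1, 11 of 29 such members had OCAB within 5 kb (37.9%, 22.7 to 56.0), and inside them 5 of 7 did.

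The OCAB peaks beside these 16 members had heights of 9.69 to 136.2, where the median OCAB peak had 16. Beside the second highest member, on chromosome 13, the OCAB peak was 2182 bp away with a height of 41.6. Beside the chromosome 6 member from 26158957 it was 418 bp away with a height of 23.4, and beside the chromosome 1 member from 149857167 it was 729 bp away with a height of 43.9. In those 3 cases, as in 5 of the 16, the OCAB region held no other list. For 1 of the 16, on chromosome 15, the OCAB region also held OCT2; its OCAB height of 136.2 lay 3734 bp from the member. Among other OCT2 peaks of height 30 or more, 417 of 836 (49.9%, 46.5 to 53.3) held an OCAB peak in the same region, which the rule does not permit for a member. Lower other OCT2 peaks were not counted in this way. The rise of OCAB with height is therefore not read as particular to OCT2-only regions.

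**Figure D4:**
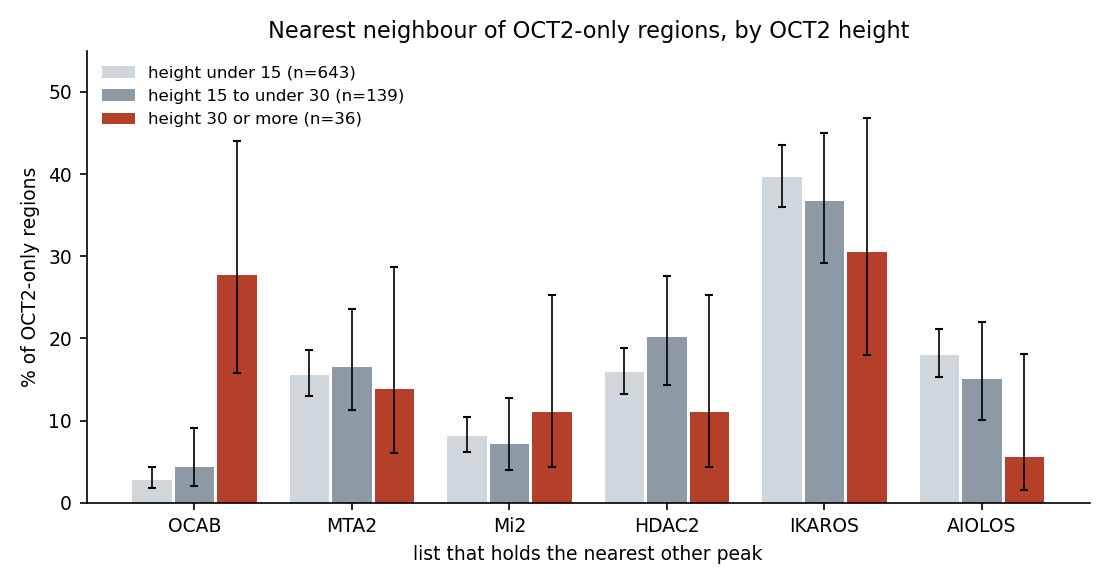
Percentage of OCT2-only regions whose nearest peak of another list belongs to each of the 6 lists, for 3 classes of OCT2 height, with 95% Wilson intervals. OCAB is nearest for 2.80% of the regions with a height under 15 and for 27.8% of those with 30 or more, while IKAROS is nearest for 39.7% and 30.6%.

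The 5 most remote members had heights of 8.73 to 15.8. The farthest lay on chromosome 5, 29451050 to 29451324, 903184 bp from an IKAROS peak, with a height of 8.73 and 9.27-fold over input. A region on chromosome 18, 69452007 to 69452281, was 812685 bp from IKAROS with a height of 15.8, and one on chromosome 14, 43284249 to 43284523, was 515014 bp from MTA2 with a height of 12.5. The other 2 of the 5 farthest were on chromosome 8, 80157927 to 80158201 (height 12.5, over an input value of 0.4), and on chromosome 6, 49064972 to 49065246 (height 9.82). Of the 36 members with a height of 30 or more, 3 lay more than 10 kb from another list and 21 within 500 bp. Among those 3, the region on chromosome 18 starting at 58756070 had a height of 36.0 and lay 320442 bp from IKAROS.

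OCT2-only regions were spread over the genome and seldom grouped. They made up between 6.86% of the OCT2 regions of chromosome 22 (4.13 to 11.2) and 13.4% of those of chromosome 6 (10.3 to 17.1). The intervals of chromosomes 1 to 22 and X all include the genome-wide 10.1% except that of chromosome 6, which begins at 10.3%; this is 1 of 23 intervals compared. None of the 2 OCT2 regions outside these chromosomes was OCT2-only. A second OCT2-only region within 10 kb was found for 14 members (1.71%, 1.02 to 2.85), in 7 pairs. Pairs lay on chromosome 1 (9176524 to 9184167), chromosome 2 (232571932 to 232574885) and chromosome 22 (27038653 to 27045024), and the histone span held one of the other 4, from 26188607 to 26198896. At 50 kb the longest run had 5 regions and lay in the same span, from 26158957 to 26270958. By fixed windows of 1 Mb, 555 windows held 1 member and 100 held 2, and the most, 6, were in the window from 26 Mb of chromosome 6, where OCT2 had 19 regions.

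**Figure D5:**
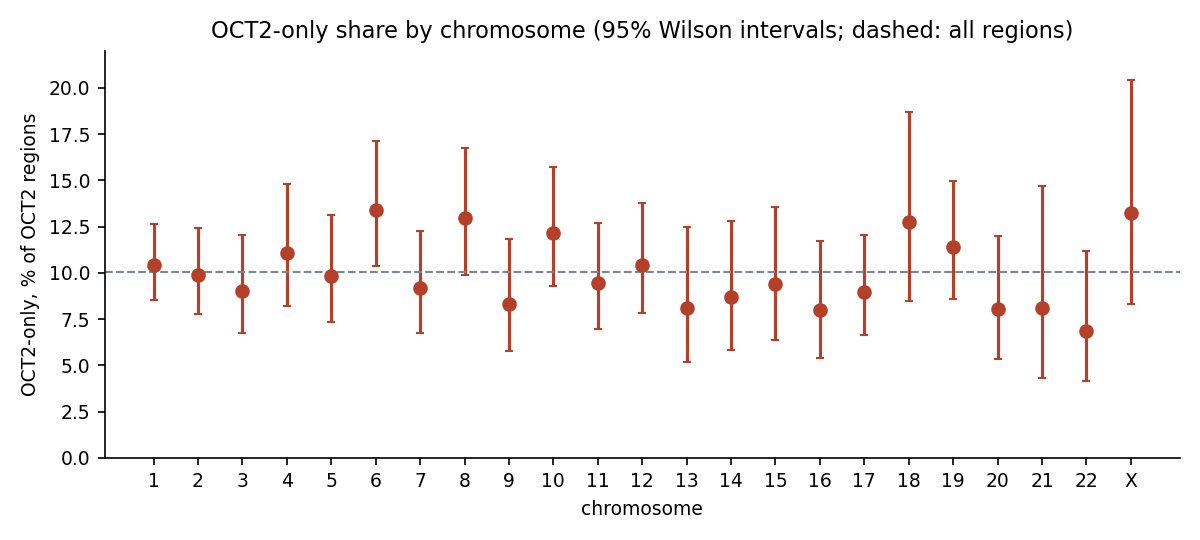
OCT2-only regions as a percentage of the regions with an OCT2 peak on each chromosome, with 95% Wilson intervals; the dashed line is the genome-wide 10.1%. Values run from 6.86% on chromosome 22 to 13.4% on chromosome 6.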

How the data were processed

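Each antibody had 1 library and 1 deposited peak list; the submitters' processing notes name build hg19, HOMER 4.9.1, Bowtie2 2.3.2.2 and CASAVA, version 1.8.2 except 1.4 for HDAC2. Per the file headers, the deposited columns are peak signal per 10 M tags, the count of tags, input signal, ratios over input, over the surrounding region and for clonal tags, Poisson p-values, a focus fraction and a peak score. The HDAC2 header sets 4-fold as the least enrichment, both against input and against 10000 bp of surroundings; for the rest, calling limits were not given in the sources used here. The HDAC2 list reaches the highest Poisson p-value over input of the 7 (9.5e-05), and its library had the fewest tags of the 5 whose depth was recovered. The other lists also differ: OCT2 reaches 8.92e-10 and IKAROS 8.32e-10. OCAB (9.49e-11), MTA2 (9.98e-11), Mi2 (8.97e-11) and AIOLOS (9.53e-11) stay below 1e-10. Some members would thus not have met a limit that 4 other lists keep.

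Peaks sharing at least 1 bp were merged. Gaps are the bases between a region and the nearest peak. Shares have 95% Wilson intervals and medians have order-statistic intervals; tag counts have exact Poisson intervals, and the PCR-amplified reads carry no molecular identifier. Depth is the median of tags over height among peaks of at least 100 tags, for lists with unscaled tags. Merging, gaps and intervals were tested on simulated data. Named regions are the 10 highest members at 4-fold or more over input on chromosomes 1 to 22 and X (a tie at the last place was settled by fold), the 5 farthest from other lists, runs of members at most 10 kb apart, and 3 on either side of the overlap rule. Members, lists and spans were chosen with earlier results of these data known. A genome and annotation on hg19 were not used here, so octamer shares and gene context of the regions, both planned, were not run; RefSeq promoters were matched by symbol. Alternatives covered overlap, p-value and fold limits, list length, chromosomes and leaving out each other list. Python 3.11.15, numpy 2.4.6, pandas 2.3.3, scipy 1.17.1 and matplotlib 3.10.9 were used.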

Additional observations from a re-analysis of the deposited data

How the results depend on the processing

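Of 117 recomputed values for 7 results, 66 stayed within 1.5 times the count or inside the reported interval and 51 moved; the height ratio stayed below 1 in all 16 of its alternatives. With a peak of another list within 500 bp counted as shared, there were 535 OCT2-only regions (6.58% of OCT2 regions), with median height 9.82, height ratio 0.668, 58.3% with another list within 10 kb and 0.374% with a second member there; within 1000 bp these were 467, 5.75%, 9.82, 0.668, 52.2% and 0. Overlap of 50% of the shorter peak gave 14.3%, 80.8% and 4.04% for the 3 shares, and centres within 100 bp gave 1515 regions, 18.6%, a fold over input of 10.8, 85.3% and 4.09%. A limit of 1e-10 on the Poisson p-value over input gave 753 regions and a fold of 14.3 in every list, and 690 regions and 14.7 in the OCT2 list alone. At 8-fold in every list the share was 14.3%, height 9.82, ratio 0.668, fold 14.8 and the share within 10 kb 66.8%; in the OCT2 list alone the values were 11.8%, 9.27, 0.631, 15.1 and, for a second member, 0.312%. With the 2000 highest peaks of every list, 33.3% of OCT2 regions were OCT2-only, with height 26.2, ratio 0.888, fold 15.1, 27.5% within 10 kb and 7.36% with a second member. Leaving out 1 list gave 11.7% (OCAB), 12.5% (MTA2), 10.8% (Mi2), 11.6% (HDAC2), 12.8% (IKAROS) and 10.8% (AIOLOS); without IKAROS 64.6% lay within 10 kb of another list, and without MTA2 3.16% had a second member. At 5 kb and 50 kb, 64.2% and 91.3% had another list, and 0.978% and 5.75% a second member. Dropping OCT2 peaks under the median height, chosen after seeing the data, left 203 members. The cause of these shifts was not tested. No paired analysis was possible because each antibody had 1 library. A depth of 18.3 M tags leaves the lowest members on 11 tags.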
